A study of Mus musculus with 6 samples.

Results

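Molecular chaperones are the subject of this report. Every gene of the transcript table was taken whose name stands alone and begins with Hspa, Hspb, Hspd, Hspe, Hsph, Hsp90, Dnaj or Cct2 to Cct8, together with Tcp1, Cryab, Calr, Canx, Pdia3, Pdia4, Pdia6 and P4hb. This gave 55 genes of the 6357 genes with a name of their own in the table, and they held 483 of its 36659 transcripts. The genes were chosen by name. They and the gene lists used below were set with earlier results of these data known, so they are not independent of the counts. The study sequenced amplified cDNA of 6 single brain cells of CD-1 mice, given in the labels as embryo, with PacBio reads, of which 1 can run from the start of a molecule to its tail. Vascular and leptomeningeal cells (VLMC-1 and VLMC-2), immature oligodendrocytes (Oligo1-1 and Oligo1-2) and mature myelinating oligodendrocytes (Oligo5-1 and Oligo5-2) were each represented by 2 cells, and where values of all 6 follow each other they are in this order. No cell received a treatment according to the labels. The labels name no animal for a cell, so each cell type was taken as 1 sample, no test was run between cells or cell types, and intervals cover counting error only.

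Chaperones bind proteins that are not yet folded, or that have lost their fold, and help them to reach their final shape. Hsp70 proteins work in cycles of ATP with J proteins (the Dnaj genes), which bring them their clients, while Hsp90 proteins act later on a narrower set of clients and the TRiC ring encloses actin, tubulin and other proteins. In the endoplasmic reticulum (ER) the Hsp70 protein Hspa5 (BiP), the Hsp90 protein Hsp90b1 (GRP94), the lectins calnexin and calreticulin and the protein disulfide isomerases fold secreted and membrane proteins, and the unfolded protein response raises many of their genes. Heat and other stress raise another set in the cytosol through heat shock factor, with Hspa1a and Hspa1b as its best known members.

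A transcript here is a group of reads of one cell and gene with the same unique molecular identifier (UMI), the tag that marks a cDNA molecule before amplification. The cells held between 2338 transcripts (VLMC-1) and 11483 (Oligo1-1), so that a count of 0, which allows 3 counts, allowed a share of up to 0.128% in the shallowest cell and 0.0261% in the deepest. Of the chaperone transcripts 58.6% rested on 1 read, as did 60.5% of all transcripts. The labels call the 2 VLMCs oligodendrocyte progenitor cells. Of 10 progenitor markers only Pdgfra was found in them (5 and 3 transcripts), whereas 9 and 10 of 10 VLMC markers were found, at 4.62% and 5.91% of transcripts, and the 10 oligodendrocyte markers were at 0. In the oligodendrocytes the VLMC markers were at 0 and the oligodendrocyte markers at 9.19% to 14.3%. Oligo5-2 alone held neuron markers, 40 transcripts of 8 of 10 genes or 0.644% of its total, with Slc17a7 and Gad1 at 0. Of 8 astrocyte markers, 50 transcripts of S100b and Slc1a2 were found in Oligo5-2 (0.805%), 20 of S100b in Oligo5-1 (0.339%) and 4, 0, 4 and 1 of the list in the cells before them, with Gfap and Aqp4 at 0 in every cell.

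Chaperones took 1.33% and 1.75% of the transcripts of the VLMCs, 1.5% and 1.29% of those of the Oligo1 cells, and 1.02% and 0.966% of those of the Oligo5 cells. These shares rested on 31, 82, 172, 78, 60 and 60 transcripts. Both mature cells lay below the other 4, with a mean of 0.992% ± 0.0366 (SD, n = 2) against 1.39% ± 0.146 in Oligo1 and 1.54% ± 0.299 in VLMCs, although the counting interval of Oligo5-1 (0.778% to 1.31%) overlapped those of all but VLMC-2 (1.39% to 2.17%). Reads came from a run on short and a run on long molecules, and among transcripts seen in the short run the shares were 0.954%, 1.1%, 1.15%, 1.27%, 1.01% and 1.05%, so that VLMC-1 was the lowest.

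Split by compartment, the difference lay in the ER. The 12 ER chaperones detected had 18, 46, 79, 36, 16 and 18 transcripts in the 6 cells, or 0.770%, 0.981%, 0.688%, 0.596%, 0.271% and 0.290% of each cell. The means were 0.875% ± 0.149 in VLMCs, 0.642% ± 0.0652 in Oligo1 and 0.281% ± 0.0130 in Oligo5 (SD, n = 2), and the values of the 3 types did not overlap. Where UMIs that differ by 1 substitution or are shifted by 1 base, on molecules with both ends within 20 bp, were counted once, the shares were 0.663%, 0.796%, 0.733%, 0.581%, 0.234% and 0.283%. VLMCs and Oligo1 then overlapped, and Oligo5 remained lowest. Counting intervals of VLMC-2 (0.719% to 1.31%) and Oligo1-1 (0.545% to 0.857%) overlapped. The upper bounds of Oligo5-1 (0.440%) and Oligo5-2 (0.458%) lay below the lower bounds of VLMC-2 and Oligo1-1. The lower bound of Oligo1-2 (0.418%) lay below both upper bounds, and that of VLMC-1 (0.457%) lay just below that of Oligo5-2, so these intervals overlapped. Among transcripts seen in the long run the ER means were 1.35%, 0.804% and 0.280% for VLMCs, Oligo1 and Oligo5, and among those seen in the short run 0.484%, 0.507% and 0.297%. Oligo5 was thus lowest in both runs, but VLMCs stood above Oligo1 in the long run only.

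In the cytosol and nucleus no such order was seen. The 30 genes there had 11, 32, 86, 38, 40 and 33 transcripts, or 0.470%, 0.682%, 0.749%, 0.629%, 0.679% and 0.531%. The type means were 0.576% ± 0.150 in VLMCs, 0.689% ± 0.0849 in Oligo1 and 0.605% ± 0.104 in Oligo5 (SD, n = 2), and the ranges of the types overlapped. The 7 mitochondrial chaperones had only 15 transcripts in all 6 cells, from 1 to 4 per cell and 0.0331% to 0.0644% of transcripts. A further 6 J proteins and related genes of vesicles, membranes or unsure place also had 15. The ER therefore held 56.6% of the chaperone transcripts of VLMCs (64 of 113, Clopper-Pearson 95% interval 47.0% to 65.9%), 45.9% and 46.2% in the Oligo1 cells, and 26.7% and 30% in the Oligo5 cells. With UMIs merged the VLMCs had 48.8% (60% and 45.3% in the 2 cells), the Oligo1 cells 46.8% and 45.2%, and the Oligo5 cells 23.5% and 28.1%.

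**Figure D1:**
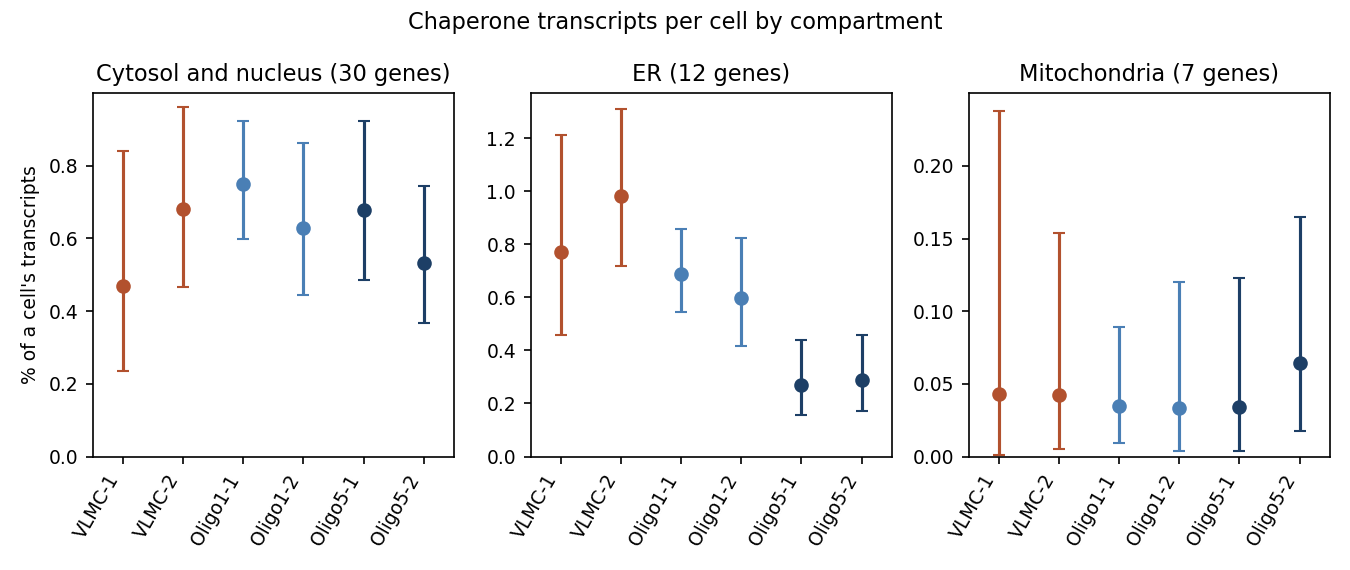
Share of each cell's transcripts (percent, y axis) that came from chaperones of the cytosol and nucleus, the ER and the mitochondria (separate scales), with 1 point per cell and Clopper-Pearson 95% intervals for counting error. ER shares run from 0.271% in Oligo5-1 to 0.981% in VLMC-2 and are lowest in both Oligo5 cells, the order of VLMCs over Oligo1 being lost with merged UMIs, while cytosolic shares overlap and mitochondrial shares stay under 0.1%.

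To set single genes beside the rest of the transcriptome, the mean share of the cells of each group was compared for the 669 genes with 10 or more transcripts, 14 of them chaperones. A gene was called higher where the fold was 2 or more and every cell of one group lay above every cell of the other. The 3 chaperones Hspa1a, Hspa5 and Pdia6 were called higher in VLMCs than in the 4 oligodendrocytes, or 21.4% of 14, where 12.4% of all genes compared were called. Hspa1a reached the minimum of 10 through its VLMC transcripts alone, so its place among the 14 and its call rest on the same counts. None of the 14 chaperones was called higher in oligodendrocytes, where 11.1% of all genes were. Cct7, P4hb and Pdia3 were called higher in Oligo1 than in Oligo5, or 21.4% against 24.5% of all genes, and Cryab was called higher in Oligo5, or 7.14% against 12.3%. These counts of members lay near the shares of all genes. With UMIs merged, Cct7 was no longer called. The median fold of Oligo1 over Oligo5 was 1.66 for the 14 chaperones and 1.08 for all 669 genes, and in the other direction 0.474 and 0.771. For VLMCs over oligodendrocytes it was 0.795 and 0.349, and in the other direction 1.26 and 1.04. A gene at 0 in the first group counts as a fold of 0 and a gene at 0 in the second is set to 3 counts there. The directions are therefore not inverse, and no order of the members against all genes is read from them.

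Hspa5, the Hsp70 of the ER and a sensor partner in the unfolded protein response, had 5 and 15 transcripts in the VLMCs, 12 and 2 in Oligo1, and 0 and 3 in Oligo5. As a share of the cell this was a mean of 0.267% in VLMCs against 0.0465% in oligodendrocytes, 5.74 times as high, and both VLMCs lay above all 4 other cells. With UMIs merged, Hspa5 had 3, 9, 11, 2, 0 and 2 transcripts and was still called. It was the only chaperone called in VLMCs after that step, while Hspa1a kept 1 and 8 transcripts in the VLMCs and none elsewhere, a total under the minimum of 10.

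Hsp90b1, the Hsp90 of the ER, followed another pattern. It had 1 and 8 transcripts in VLMCs, 29 and 7 in Oligo1 and 4 and 8 in Oligo5, or means of 0.107%, 0.184% and 0.0983%. Its 2 Oligo5 cells (0.0679% and 0.129%) lay on both sides of Oligo1-2 (0.116%), so that the oligodendrocyte stages overlapped.

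The disulfide isomerases Pdia3, Pdia6 and P4hb form and rearrange the disulfide bonds of secreted proteins. P4hb had 1, 8, 8, 4, 2 and 1 transcripts, and Oligo1 stood 2.72 times above Oligo5 (0.0679% against 0.0250%). Pdia3, the partner of calnexin and calreticulin, had 0, 5, 6, 4, 1 and 2, and Oligo1 stood 2.41 times above Oligo5 (0.0592% against 0.0246%). Pdia6 had 2, 5, 6, 1, 1 and 0, a mean of 0.0961% in VLMCs and 0.0214% in oligodendrocytes, 4.48 times as high. With UMIs merged as above, VLMC-2 kept 2 transcripts of Pdia6 and the groups overlapped. All 3 genes had their lowest mean in Oligo5, and together they took 0.0679% and 0.0483% of the 2 Oligo5 cells against 0.174% and 0.149% in Oligo1. The single P4hb transcript of VLMC-1 was the only one of the 483 aligned outside its gene.

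The lectin chaperone Canx had 0, 5, 10, 5, 6 and 1 transcripts, with no separation of the types. Its soluble counterpart Calr had 1 in VLMC-1 and 2 in Oligo1-2 only. Hspa13, an Hsp70 relative of the ER, had 5, 0, 5, 1, 2 and 3, so that 1 VLMC held 5 and the other none. Of the ER J proteins, Dnajb11 and Dnajb14 had 5 transcripts each, all in Oligo1, Dnajc3 had 3 in VLMC-1 and 2 in Oligo1-2, and Dnajb12 had 1. Pdia4, Dnajb9, Dnajc1 and Dnajc10 had no transcript of their own name.

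**Figure D2:**
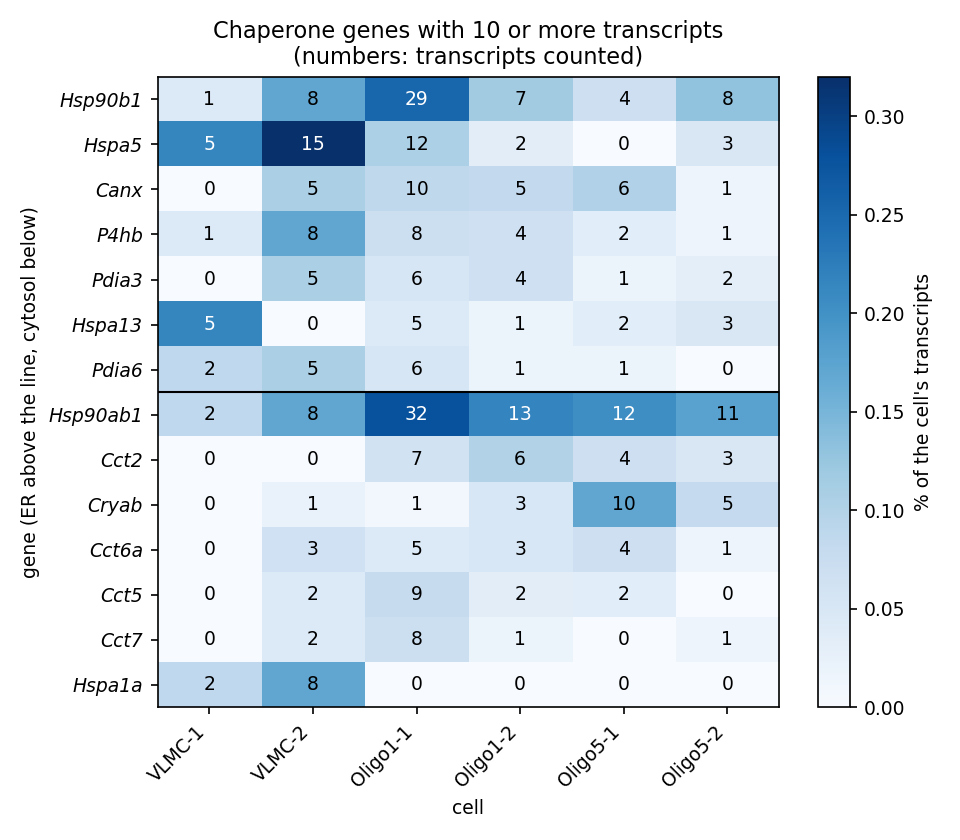
Transcripts per cell as a percent of the cell's total (color scale) for the 14 chaperones with 10 or more transcripts (rows) in the 6 cells (columns), with the count written in each field. Hspa1a is at 0 in all 4 oligodendrocytes, Cct2 at 0 in both VLMCs, and Cryab has its highest counts, 10 and 5, in the Oligo5 cells.

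Among the members 8 are known targets of the unfolded protein response, and 6 of them were detected. Together they had 12, 28, 48, 18, 5 and 11 transcripts, a mean of 0.555% in VLMCs, 0.358% in Oligo1 and 0.131% in Oligo5, with no overlap between the types. With UMIs merged the shares were 0.442%, 0.439%, 0.456%, 0.282%, 0.078% and 0.177%, so that Oligo1-1 lay above both VLMCs and only Oligo5 stayed apart. Most of these are Hspa5 and Hsp90b1 transcripts. Of 25 other genes of ER folding and its stress response, 17 were detected, with a mean of 0.363% in VLMCs (26 transcripts), 0.182% in Oligo1 (30) and 0.0835% in Oligo5 (10). Among them were Serpinh1, the collagen chaperone, with 1, 3, 0, 0, 1 and 0 transcripts, and Fkbp10, a collagen prolyl isomerase, with 2 and 1 in the VLMCs and none elsewhere. Fkbp9, which had the most transcripts of the list, had 0, 2, 2, 9, 1 and 0, and Manf had 0, 1, 4, 1, 0 and 0. Atf4, which drives part of the response, had 1, 2, 4, 1, 0 and 0, and Ddit3 and Ern1 had none.

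Promoters of these genes were read from RefSeq (GRCm38.p6, from 250 bases before to 50 after each start) and searched on both strands for the ER stress element (CCAAT, 9 bases of any kind, CCACG), the site through which Atf6 acts on ER chaperone genes. It was found in 6 of 94 chaperone promoters (6.38%) and in 39 of 32851 promoters in all (0.119%). The genes were Hspa5, Hsp90b1, Pdia6, Calr, Canx and Dnajc3, 5 of the 8 unfolded protein response targets among them, while the promoters of Pdia4, Dnajb9 and Dnajb11 held no match. The stretches of Hspa5, Pdia6, Canx and Calr are given to show how the element reads in genes with different counts, with the element in capitals and 10 bases on each side. In Calr it lies in the opposite direction.

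Hspa5, chr2:34772015-34772053, plus strand: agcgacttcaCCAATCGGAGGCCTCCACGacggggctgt
Pdia6, chr12:17266481-17266519, plus strand: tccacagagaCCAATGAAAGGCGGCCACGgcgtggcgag
Canx, chr11:50325790-50325828, minus strand: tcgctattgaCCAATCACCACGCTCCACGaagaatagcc
Calr, chr8:84847065-84847103, minus strand: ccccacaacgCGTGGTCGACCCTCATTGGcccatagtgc

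Genes with the same element did not share one pattern over the cells. Hspa5 and Pdia6 were higher in VLMCs by the rule above, Canx was not, and Hsp90b1, which held 2 matches, had its highest share in Oligo1-1. A match is a stretch of letters and no measurement of binding.

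Of 8 genes that heat shock raises in many cells (Hspa1a, Hspa1b, Hspb1, Hsph1, Hsp90aa1, Dnajb1, Dnajb4 and Dnaja1), 4 were detected. Together they had 4 and 10 transcripts in the VLMCs, 0 and 1 in the Oligo1 cells and 0 in both Oligo5 cells. The mean share was 0.192% ± 0.0298 in VLMCs (SD, n = 2) and 0.00414% ± 0.00827 in oligodendrocytes (SD, n = 4). Both VLMCs lay above all oligodendrocytes, and 14 of the 15 transcripts were theirs. The 4 of VLMC-1 had 1 read each and became 2 with UMIs merged, while VLMC-2 kept 10. Hspa1a, the inducible cytosolic Hsp70, had 2 and 8 in the VLMCs (0.128% on average). Among the 29632 oligodendrocyte transcripts it had none, which allows a share of up to 0.0101%. Set against that bound the VLMC mean was 12.7 times as high, a fold that leaves out the counting error of the VLMC transcripts. Hspa1b, the near copy of Hspa1a, had 2 in VLMC-1, the inducible cytosolic Hsp90 gene Hsp90aa1 had 2 in VLMC-2, and the J protein Dnaja1 had 1 in Oligo1-2. Hspb1, Hsph1, Dnajb1 and Dnajb4 had none in any cell. Bag3, an Hsp70 partner that heat shock also raises, had 2 transcripts in VLMC-1 only, which became 1 with UMIs merged. Other cytosolic partners went the other way, Chordc1 with 0, 0, 4, 0, 1 and 0 transcripts and Fkbp4 with 0, 0, 4, 1, 2 and 0. The 23 cytosolic partners together had a mean share of 0.118% in VLMCs and 0.155% in oligodendrocytes.

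Immediate early genes, which many stimuli and tissue handling raise within minutes, stood higher in the same cells. Of 12 such genes 10 were detected, at 2.98% ± 0.685 of VLMC transcripts (SD, n = 2) and 0.0833% ± 0.0661 in oligodendrocytes (SD, n = 4). Fos had 37 and 18 transcripts in the VLMCs and 0, 1, 1 and 2 in the others, while Jund and Ier2 were at 0 in all cells. Their part in the Hspa1a values was not tested.

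**Figure D3:**
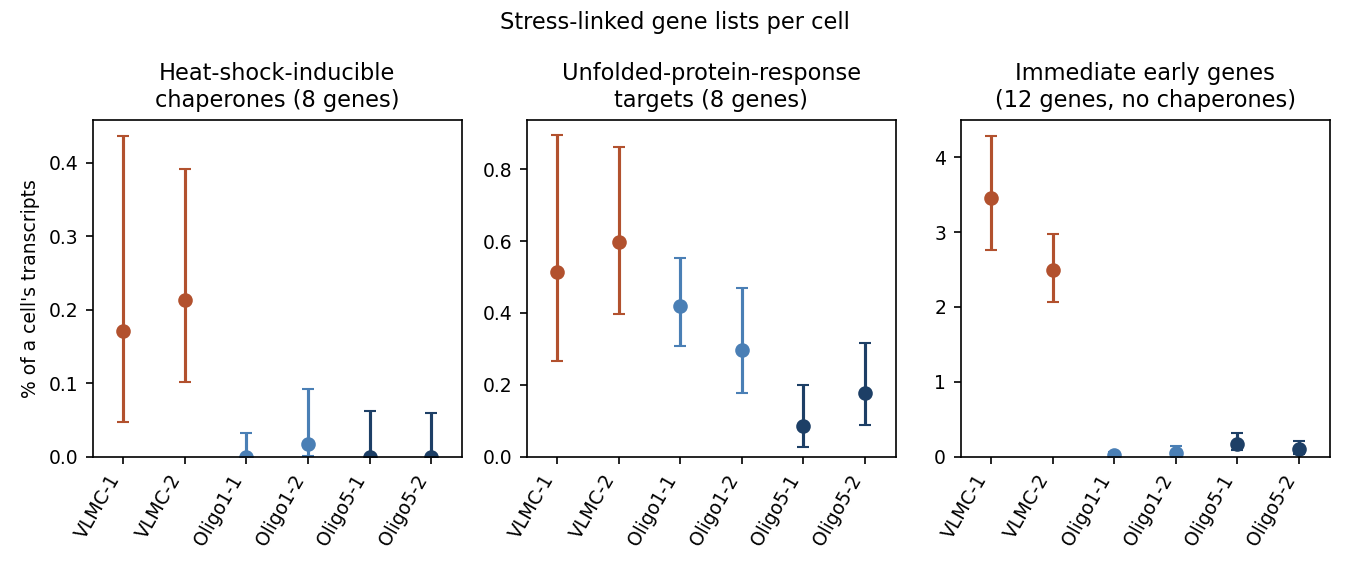
Share of each cell's transcripts (percent, y axis, separate scales) from 8 heat-shock-inducible chaperones, 8 unfolded protein response targets among the chaperones and 12 immediate early genes, with 1 point per cell and Clopper-Pearson 95% intervals. In all 3 panels both VLMCs lie above all 4 oligodendrocytes, which with merged UMIs no longer holds for the unfolded protein response targets, and 3 of the 4 oligodendrocytes have no heat-shock-inducible transcript.

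The Hspa1a transcripts differed between the 2 VLMCs in length. Hspa1a is a gene with 1 exon on chromosome 17 (34969190 to 34972156, minus strand). In VLMC-1 both transcripts lay wholly in the 3′ untranslated region (UTR), spanned 295 and 294 bp, and became 1 when their UMIs were merged. In VLMC-2, 2 began in the 3′ UTR, 4 in the coding sequence and 2 in the 5′ UTR. The latter spanned 2241 bp (7 reads) and 2397 bp (2 reads), from before the coding sequence to beyond its end. The Hspa1a transcripts formed 2 sets of junctions although the gene has 1 exon, so at least 1 aligned with an inner gap. A span therefore does not show that the whole coding sequence was held. Of the 8 transcripts of VLMC-2, 7 ended within 3 positions of each other (34969756 to 34969758), 567 bp before the annotated end. The 2 Hspa1b transcripts, of 395 and 397 bp, also lay in the 3′ UTR, ended at its annotated end and became 1 when their UMIs were merged. The sequence models of Hspa1a and Hspa1b are 99.2% identical over 74.0% of Hspa1a, and only molecules that aligned to 1 place were deposited.

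The form with 3 units of the heat shock element (GAA and TTC in alternation, from either, with 2 bases between units) were found in 6 of 94 chaperone promoters and in 0.603% of all promoters. The genes were Dnajb6, Hsph1 and the neighbours Hspd1 and Hspe1, whose shared promoter holds 2 overlapping matches. Of these only Hspe1 was detected, with 1 transcript in each VLMC. The shorter form of 2 units, which every match of 3 units also contains, was found in 23.4% of chaperone promoters and 15.1% of all. It was present in 6 of the 7 heat-shock-inducible genes with a listed promoter, Dnajb1 being the exception. Hspa1a and Hspa1b carry it in the same stretch before their starts, and it is shown beside that of Hspe1 because those genes were found in the VLMCs. The element is in capitals.

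Hspa1a, chr17:34972243-34972270, minus strand: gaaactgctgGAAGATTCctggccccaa
Hspa1b, chr17:34959325-34959352, minus strand: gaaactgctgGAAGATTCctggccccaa
Hspe1, chr1:55088049-55088086, plus strand: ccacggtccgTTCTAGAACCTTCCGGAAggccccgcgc

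Hsp90ab1, the constitutive Hsp90 of the cytosol, had transcripts in all 6 cells: 2, 8, 32, 13, 12 and 11, in total 78. Its share ran from 0.0855% in VLMC-1 to 0.279% in Oligo1-1, with means of 0.128% in VLMCs and 0.219% in oligodendrocytes. VLMC-2 (0.171%) lay just below Oligo5-2 (0.177%), so the groups did not overlap, but the fold of 1.71 was under 2. With UMIs merged the groups overlapped, as VLMC-2 (0.22%) lay above Oligo1-2 (0.211%), Oligo5-1 (0.195%) and Oligo5-2 (0.177%). Stage made less difference, with 0.247% in Oligo1 and 0.190% in Oligo5. Hsp90b1 and Hsp90ab1 were found within their genes in all 6 cells, and P4hb in 5.

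The TRiC ring has 8 subunits (Tcp1 and Cct2 to Cct8, the sixth being Cct6a), and all 8 were detected, with 79 transcripts. There were 0 and 10 in the VLMCs, 40 and 13 in the Oligo1 cells and 10 and 6 in the Oligo5 cells. The share was 0.282% ± 0.0942 in Oligo1 and 0.133% ± 0.0516 in Oligo5 (SD, n = 2), and both Oligo1 cells lay above both Oligo5 cells. VLMC-2 at 0.213% was close to Oligo1-2 at 0.215%, and a count of 0 in VLMC-1 allows up to 0.128%. Cct2 had 7, 6, 4 and 3 transcripts in the 4 oligodendrocytes and none among the 7027 VLMC transcripts, which allows up to 0.0427%. Set against that bound the oligodendrocyte mean was 1.62 times as high, a fold that leaves out the counting error of the oligodendrocyte transcripts. Without Cct2 the ring had 10 transcripts in VLMCs and 49 in oligodendrocytes. Cct7 had 0, 2, 8, 1, 0 and 1 transcripts and was 5.35 times as high in Oligo1 as in Oligo5 (0.0431% against 0.00805%), a difference that rested on 9 transcripts against 1. With UMIs merged, Oligo1-2 (0.0176%) lay just below Oligo5-2 (0.0177%). Cct5 had 0, 2, 9, 2, 2 and 0, and Cct6a had 0, 3, 5, 3, 4 and 1. All 6 Cct4 transcripts were in Oligo1-1, and Tcp1 had 1. Levels were not compared between subunits, since the counts are not per length.

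Cryab (αB-crystallin), a small heat shock protein that is abundant in oligodendrocytes, had 0 and 1 transcripts in VLMCs, 1 and 3 in Oligo1 and 10 and 5 in Oligo5. Its mean share was 0.0292% in Oligo1 and 0.125% in Oligo5, 4.29 times as high, and both mature cells lay above both immature cells. Against VLMCs (0.0107%) the oligodendrocyte mean of 0.0771% was 7.23 times as high, but Oligo1-1 with 1 transcript (0.00871%) lay below VLMC-2 (0.0213%). The related Hspb6 had 1 transcript, in VLMC-2, which was read 10 times.

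The remaining cytosolic Hsp70 genes were sparse. Hspa4l had 5 transcripts in VLMC-1, 2 and 1 in Oligo1 and none elsewhere, and merged UMIs left 2 in VLMC-1. Hspa4 had 4 and Hspa2 and Hspa14 had 3 each, all in oligodendrocytes. Hspa8, the constitutive Hsp70 that brain cells express strongly, had 1 transcript in all 6 cells. Its sequence model has 5 other annotated genes with at least 95% identity over at least 50% of its length, the closest being Gm6210 at 98.6%, and no other chaperone of the 91 searched had as many. Only molecules with 1 alignment were kept, and the part of this in the low count was not tested. Hsp90aa1 has 2 such copies, and Hspa1a, Hspa1b, Hspb1, Hspd1, Hspe1 and Dnajc17 have 1 each, and the same holds for their counts. The Hsp70 family as a whole, with the ER genes Hspa5 and Hspa13 counted in it, had 0.813% and 0.533% of VLMC transcripts and 0.0679% to 0.209% of those of oligodendrocytes. Of its 44 VLMC transcripts Hspa5 held 20, Hspa1a 10 and Hspa13 5. With UMIs merged the family had 0.552% and 0.522% in the VLMCs and 0.0585% to 0.218% in oligodendrocytes.

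J proteins had many genes with few transcripts each. The 23 detected had 62 transcripts, 7 in VLMCs and 55 in oligodendrocytes, and none had more than 6. Shares were 0.171% and 0.0640% in VLMCs, 0.105% and 0.265% in Oligo1, and 0.170% and 0.274% in Oligo5, so the types overlapped. Dnajc5 (cysteine string protein), which acts on synaptic and other secretory vesicles, had 2 transcripts each in Oligo1-2, Oligo5-1 and Oligo5-2. Dnajc8, a splicing-associated J protein, had 6 in 4 cells. Of the mitochondrial members Hspa9 (mortalin) had 5 transcripts, the J protein Dnajc11 had 3, Hspe1 and Dnaja3 had 2 each, and Dnajc15, Dnajc19 and Dnajc30 had 1 each. Hspd1, the Hsp60 that forms a complex with Hspe1, had none. Partners outside the member list were as sparse: 16 of 23 cytosolic cochaperones and prefoldins had 7 transcripts in VLMCs and 50 in oligodendrocytes (mean shares 0.118% and 0.155%), and 6 of 10 mitochondrial import and protease genes had 6 and 14 (0.0961% and 0.0443%).

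The deepest cell showed the most chaperones and the shallowest the fewest, while the cells between them did not follow the order of depth. The VLMCs showed 13 and 22, the Oligo1 cells 32 and 28 and the Oligo5 cells 20 and 26. Thinned to the 2338 transcripts of VLMC-1, the expected numbers were 13.0, 16.2, 16.2, 17.6, 12.5 and 14.2, and Oligo1-1 no longer stood apart. Of the 55 members 18 were found in 1 cell only. The annotation holds 90 protein-coding genes that match the name rule, and 36 of these had no transcript, among them Dnajb6, Hspb8 and Hspa12a.

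Long reads give both ends of each transcript. Of the 482 chaperone transcripts within their gene, 239 covered an annotated first exon (49.6%, 45% to 54.1%), as did 37.4% of the transcripts of all other genes. By cell the share was 40%, 74.4%, 62.8%, 16.7%, 16.7% and 58.3%, and it was low for other genes in the same cells, at 12.6% in Oligo1-2 and 20.2% in Oligo5-1. Those 2 cells also had the fewest transcripts with a read in the long run, 24.5% and 29.4% against 48.1% to 53.5% elsewhere. Chaperone transcripts read only in the long run covered a first exon in 67.5% of cases and those read only in the short run in 33.8%. Members differed widely, from 27 of 37 for Hspa5 and 12 of 15 for Pdia6 to 1 of 27 for Canx, whose deposited transcripts held the last of 15 exons alone in 16 cases.

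At the other end, 35.5% of chaperone transcripts ended within 20 bp of an annotated end and 44.2% elsewhere in the 3′ UTR. In all other genes these shares were 49.2% and 38.8%. A further class ended inside the coding sequence: 85 of 482 chaperone transcripts (17.6%, 14.3% to 21.3%) and 4.09% of those of other genes (1444 of 35298). Hsp90ab1 with 43 of 78 and Hsp90b1 with 23 of 57 made up most of these, and without them the chaperone share was 5.48% (19 of 347, 3.33% to 8.42%).

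**Figure D4:**
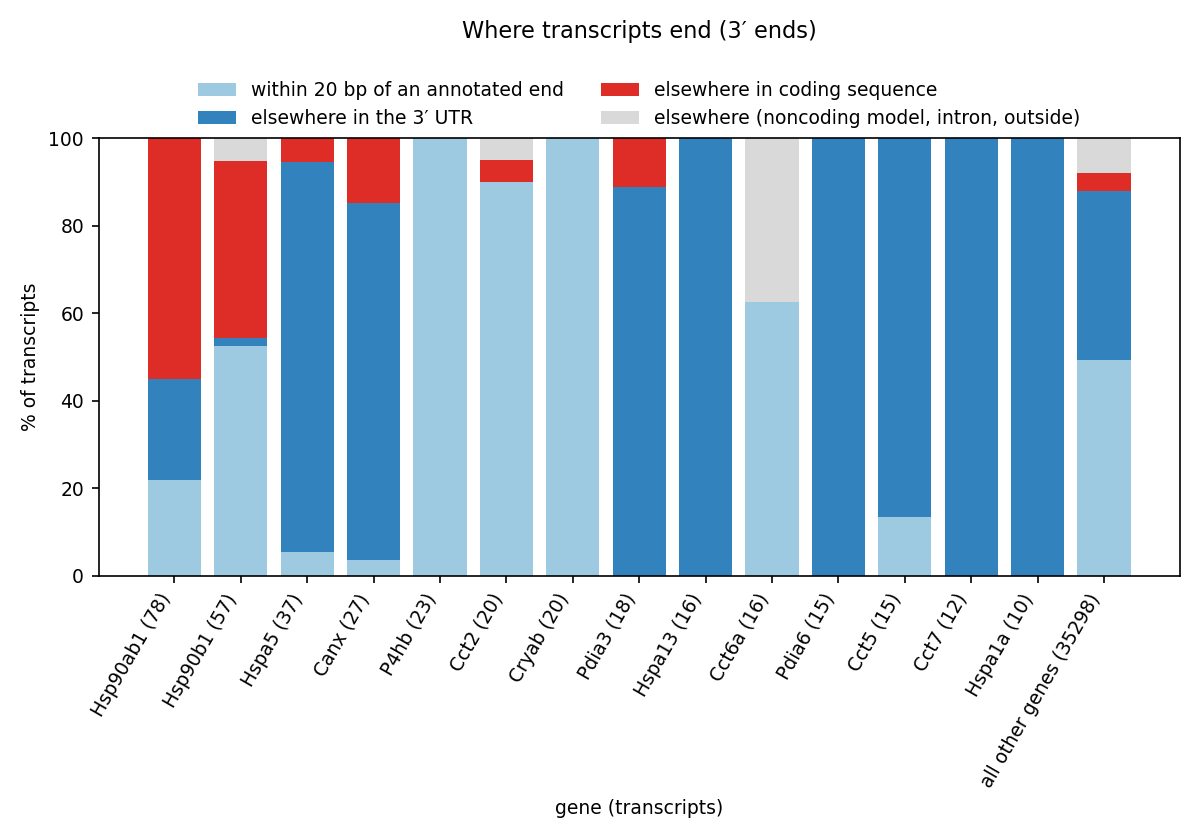
Percent of transcripts (y axis) that end at an annotated end, elsewhere in the 3′ UTR, in the coding sequence or elsewhere, for members with 10 or more transcripts and for all other genes (x axis, with the number of transcripts). Coding ends reach 55.1% in Hsp90ab1 and 40.4% in Hsp90b1 and are 4.09% in other genes, while all Cryab transcripts end at the annotated end.

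The coding ends lay before stretches rich in A. Of the 85, 69 (81.2%) were followed by 12 or more As in the next 20 bases of the mRNA, as were 69.3% of the coding ends of other genes. Without Hsp90ab1 and Hsp90b1 it was 9 of 19 (47.4%, 24.4% to 71.1%). Such windows are rare, at 1.15% of coding positions in chaperones and 0.796% in other genes, and more frequent in Hsp90ab1 (2.21%), Hsp90b1 (3.16%) and Hspa5 (2.60%). Both Hsp90 genes code for charged stretches, and the codons of these windows were not counted. A polyadenylation signal (AATAAA or ATTAAA) in the 40 bases before the end was found at 0 of the 85 coding ends. It was found at 90.4% of the chaperone ends that matched the annotation (141 of the 156 that lay within a sequence model) and at 86.4% of those elsewhere in the 3′ UTR. In all other genes the signal was found at 5.96% of coding ends, 89.1% of ends that matched the annotation and 53.9% of those elsewhere in the 3′ UTR. Priming of cDNA synthesis on the mRNA itself, and not on a tail, was not tested. The places with 4 or more transcripts are shown because most coding ends fall on them, with the 10 bases up to the median end in lower case and the next 20 bases of the mRNA in capitals.

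Hsp90ab1, exon 6, chr17:45570404-45570433, minus strand: gcggcaaagaCAAGAAAAAGAAAACAAAGA
Hsp90ab1, exon 9, chr17:45568927-45568956, minus strand: gaggacgaggAAGAGAAGAAGAAAATGGAG
Hsp90b1, exon 7, chr10:86698329-86698358, minus strand: agaggaggaaGAAGAAGAAAAGAAACCAAA
Hsp90b1, exon 7, chr10:86698378-86698407, minus strand: atgaagcagcAAAAGAAGAGAAAGAAGAAT
Hsp90b1, exon 17, chr10:86691637-86691666, minus strand: atgcagggacAGAAGAAGAAGAGGAGGAAA

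The place in exon 6 of Hsp90ab1, with 15 As in its 20 bases, ended 33 of its 78 transcripts and was used in every cell: 1, 3, 13, 7, 5 and 4. Of the 33, 25 reached back to the first exon and 6 had a read in the long run. Such a transcript stops at base 896 of an mRNA model of 2520 bases, whose coding sequence runs from base 106 to 2277. The place in exon 9 ended 6. In Hsp90b1 the 3 places ended 8, 4 and 5 transcripts, the 4 all being of Oligo1-2.

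**Figure D5:**
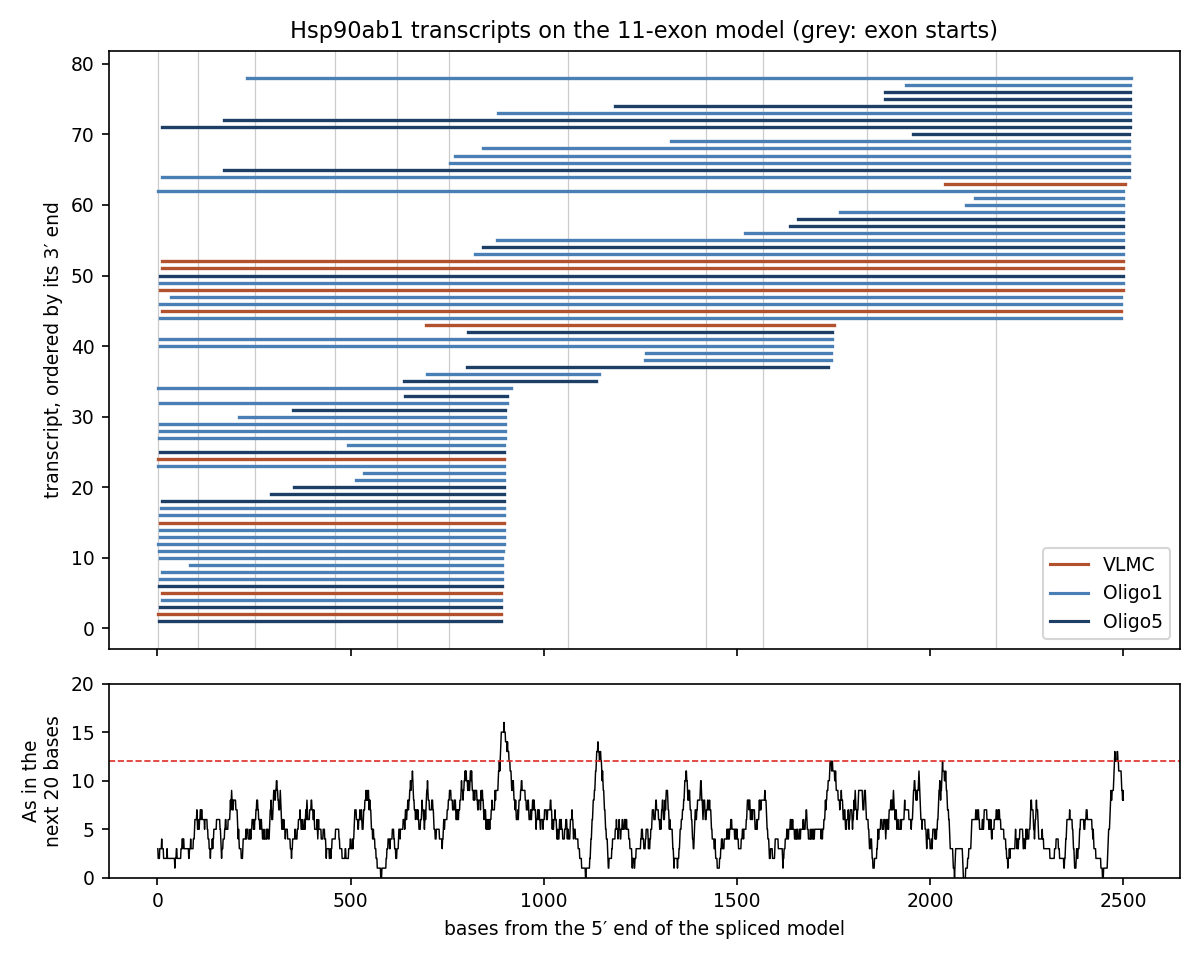
Each of the Hsp90ab1 transcripts as a line from its start to its end along the mRNA model (x axis, bases from the 5′ end), colored by cell type, above the number of As in the 20 bases after each position. Ends gather at base 896, before the stretch with 15 As, and at 2 places near the end of the model at base 2520, with 20 and 15 transcripts, and 48 positions of the coding sequence are followed by 12 or more As.

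Exon structure was counted on transcripts that cover an annotated first exon, with starts and ends within 5 bp and junctions within 1 bp taken as the same. The 239 such transcripts of 37 chaperones formed 136 isoforms, or 1.76 transcripts per isoform, and 104 of them (76.5%) were seen once. Only 17 were seen in more than 1 cell. The largest was that of Hsp90ab1 that runs from exon 1 to exon 6, with 24 transcripts in 6 cells. In Hspa1a, a gene with 1 exon, any piece covers the first exon, also one that begins in the 3′ UTR. Its 10 transcripts made 8 of the isoforms. In Hsp90ab1 all 11 exons were present in 9 transcripts (VLMC-2 with 4, Oligo1-1 with 4 and Oligo5-2 with 1), and 3 further transcripts skipped inner exons (3 and 4, 10, and 4 to 10), each seen once. First-exon starts were close together, 38 transcripts beginning between 45573260 and 45573271. In Hsp90b1 the first-exon transcripts were 7 with all 18 exons, 8 that stopped in exon 7, 2 in exon 12 and 1 each in exons 5 and 17.

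Most other members had 1 exon structure. Hspa5 had 27 first-exon transcripts, 26 of them with the same 9 deposited exons and starts between 34772092 and 34772097, 12 of VLMC-2, 11 of Oligo1-1 and 3 of Oligo5-2. P4hb had all 11 exons in 16 of 16, Pdia3 all 13 in 13 of 13, Pdia6 all 13 in 12 of 12, and Cct2 all 16 in 11 of 12. Their isoforms numbered 10 in Hspa5, 4 in P4hb, 9 in Pdia3, 6 in Pdia6 and 7 in Cct2. These isoforms therefore differed almost only at their ends and in the positions of junctions or inner gaps. The size of the junction differences was not measured. Hspa13 left out exon 5 of its 6-exon model in all 10 transcripts that crossed it, 8 of them with a first exon, in VLMC-1, Oligo1-1, Oligo5-1 and Oligo5-2. Apart from the Hsp90 genes, Cct6a had the most distinct structures, with 6 transcripts of exons 11 to 13 that began at 129844968, in Oligo1-1, Oligo1-2 and Oligo5-1, and 3 with all 13 exons, in VLMC-2 and Oligo5-2. The short structure covers an annotated first exon inside the gene.

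Several members ended in the 3′ UTR before the annotated end at one repeated place. Hspa5 ended 32 of 37 transcripts at chromosome 2, 34776454, 77 bp before its annotated end, with AATAAA 11 bases before the end. Pdia3 ended 15 of 18 at chromosome 2, 121437979, 708 bp before, Pdia6 12 of 15 at chromosome 12, 17284369, 401 bp before, and Cct7 12 of 12 at chromosome 6, 85468381, 94 bp before. Each of these had AATAAA within 14 bases of the end and at most 9 As in the next 20 bases. Canx used 2 such places, with 11 transcripts 508 bp and 7 transcripts 1002 bp before its end. Hspa13 had 6 at a place with AATAAA and 5 at a place with none and 13 As after it. Cryab and P4hb ended at the annotated end in 20 of 20 and 23 of 23, and the 20 Cryab transcripts differed at the 5′ end, with starts spread from 50752913 to 50756323 and 14 of them holding exons 2 to 4.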

How the data were processed

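The authors made cDNA from single cells captured on a Fluidigm C1 with the STRT method, amplified it and sequenced it on PacBio in 2 runs, of short (P4/C2) and long (P6/C4) molecules. They split concatemers, required the cell barcode and a poly-A stretch, aligned reads to mm10 (the processing notes name GSNAP, the methods GMAP), kept uniquely aligned molecules, joined near blocks, assigned RefSeq genes and collapsed reads of one UMI. Each deposited value is a read count per transcript, not normalized, with block positions. Selection of molecules by length and loss of multiply aligned molecules can lower short or copied genes.

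Transcripts were counted per gene and cell and divided by the total of the cell. Genes were matched by symbol to GENCODE M21 (GRCm38), all 55 members among them. Intervals are exact Poisson or Clopper-Pearson at 95%. A count of 0 was set to 3 counts over the group. Sequence models were compared with blastn 2.17.0. A window was called A-rich at 12 or more As of 20. The 14 members with 10 or more transcripts, those called and all heat-shock-inducible genes are named. The members and gene lists were chosen with earlier results of these data known. The call steps were tested on simulated counts. Alternatives were transcripts with 2 or more reads, each run alone, merged UMIs, first-exon transcripts, other minimum counts, folds and tolerances, thinning and leaving out each cell. Python 3.11.15, pandas 2.3.3, numpy 2.4.6, scipy 1.17.1 and matplotlib 3.10.9 were used.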

Additional observations from a re-analysis of the deposited data

Results flagged for a closer look

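Outside the genes with a name of their own, 14 transcripts carried several gene names of which one was a chaperone, and these were counted for no gene above. The VLMCs held 1 and 2 of them, the Oligo1 cells 7 and 1 and the Oligo5 cells 2 and 1. Pdia6 shared 3 with Atp6v1c2, and Cct8 with Usp16, Dnajc1 with Mllt10 and Cct6a with Snora15 shared 2 each.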

How the results depend on the processing

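No paired analysis was possible because the results come from no test and replicate numbers only name cells. Of 188 alternatives 147 were labelled as the same and 41 as moved. Shares and detected numbers, pooled over the 6 cells, were the same where they changed by less than the spread within cell types. Counts of called genes and of isoforms were the same where they were equal or differed by a ratio of at most 1.5. The label does not show whether a difference between cell types held. The mean share of chaperones (1.31% over 6 cells) was 1.09% in the short run, 1.62% in the long run, 1.65% in first-exon transcripts and 1.53% without the 10 most abundant genes. The cytosolic share (0.623%) was 0.905% in first-exon transcripts, the ER share (0.599%) 0.429% and 0.810% in the short and long runs, and the mitochondrial share (0.0419%) 0.0590% in the long run and 0.0557% in first-exon transcripts. The heat-shock-inducible share (0.0668%) was 0.0259% with 2 or more reads, 0.0386% in the long run, 0.138% in first-exon transcripts and 0.0375% to 0.0802% with 1 cell left out (lowest without VLMC-2). Genes called in VLMCs (3) were 1 with 2 or more reads, in the short run, with 20 or more transcripts and with UMIs merged across shifts (chosen after seeing the data), 5 with overlap allowed, and 2 to 4 with 1 cell left out. Those in oligodendrocytes (0) were 2 at a fold of 1.5 (Cct2 and Hsp90ab1), 1 with overlap allowed (Cryab) and 0 to 2 with 1 cell left out (2 without VLMC-2, 1 without Oligo1-1). Those in Oligo1 (3) were 0 in the short run, 1 with 2 or more reads, in the long run, with 20 or more transcripts and at a fold of 3, 6 with overlap allowed and 2 to 7 with 1 cell left out (7 without Oligo1-2). Those in Oligo5 (1) were 0 with 2 or more reads, in the long run and in first-exon transcripts, 2 with 5 or more transcripts and 1 to 2 with 1 cell left out (2 without Oligo1-1). Detected chaperones (23.5 per cell) were 15.7 with 2 or more reads, 16.7 in the long run and 15.0 when thinned. Isoforms (136) were 222 with ends at 0 bp, 72 with 2 or more reads and 82 to 131 with 1 cell left out (82 without Oligo1-1). The causes were not tested. Depth limits the 14 genes compared to 10 to 78 transcripts each.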
